A study of Mus musculus with 12 samples.

Results

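The neurotrophins and their receptors were followed as 6 genes, the ligand genes *Ntf3*, *Bdnf*, and *Ntf5* and the receptor genes *Ntrk2*, *Ntrk3*, and *Ngfr*, out of 45777 gene identifiers in the tables. They were taken by name, by their NCBI gene identifiers, and not by their values, but with earlier results of these data known. Total RNA was sequenced from mouse ventral spinal cord at E12.5 in 12 libraries, 3 for each combination of axial level (brachial or lumbar) and genotype. Heterozygote (Het) embryos carried a single null allele of *Isl2*, which encodes a LIM-homeodomain transcription factor of motor neurons (MNs), and are labelled *Isl2* +/-, and KO embryos carried the null allele on both chromosomes. The null allele replaces exons with a neomycin cassette, so transcripts of the rest of the gene can still be counted. The tissue was cut along the GFP of an *Hb9::GFP* transgene, which marks MNs. It was not sorted, so each library also holds interneurons, progenitors, glia, blood, and vessels. Wild-type embryos were not analysed here, and the controls lack 1 of their *Isl2* alleles. In such bulk tissue, fewer cells of a type and less RNA per cell cannot be told apart.

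Neurotrophins are secreted growth factors that support the survival, axon growth, and synapses of neurons. They are made as proneurotrophins and cut to the mature form, which binds as a dimer to Trk receptor tyrosine kinases. *Ntf3* encodes neurotrophin-3, whose preferred receptor is TrkC, the product of *Ntrk3*. *Bdnf* encodes brain-derived neurotrophic factor and *Ntf5* a further neurotrophin, and both act through TrkB, the product of *Ntrk2*. *Ngfr* encodes p75, which binds all neurotrophins, and with sortilin also the uncut proneurotrophins. In the spinal cord, neurotrophin-3 is best known for its part in the survival and central wiring of TrkC-positive proprioceptive sensory neurons, and embryonic MNs express TrkB, TrkC, and p75.

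Coordinates refer to GRCm38. *Ntf3* (gene 18205) lies on chromosome 6 from 126101412 to 126166772 on the minus strand, *Bdnf* (12064) on chromosome 2 from 109674700 to 109727043, and *Ntf5* (78405) on chromosome 7 from 45413695 to 45417179, both on the plus strand. *Ntrk2* (18212) spans chromosome 13 from 58806472 to 59133970 on the plus strand, *Ntrk3* (18213) chromosome 7 from 78179986 to 78581034, and *Ngfr* (18053) chromosome 11 from 95568818 to 95587698, both on the minus strand. *Ntrk2* and *Ntrk3* give rise to full-length receptors and to truncated forms without a kinase. RefSeq lists 9 transcripts of *Ntrk2* and 13 of *Ntrk3*, and the tables hold a single value per gene, so these forms are not separated. *Ntrk3* contains *Gm39038* on its own strand, listed at 0.301 to 1.12 TPM (transcripts per kilobase, scaled to a fixed total in each library), and *Ntrk2* overlaps *Gm53063* on the other strand, listed at no more than 0.0584 TPM. The other members overlap no gene of the tables.

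*Ntf3* is the member that differed by *Isl2* genotype in the fit over both levels, and Isl2 is a homeodomain protein, a class that often binds DNA at a TAAT core. The sequences before 2 *Ntf3* start sites of RefSeq are shown for that reason, from GRCm38.p6 on the minus strand. TAAT, or ATTA where it reads on the opposite strand, is in capitals. The listed span of *Ntf3* reaches 126166772, inside the 250 bases before the first site, so these 2 need not be all of its start sites. The first site lies farther upstream, and of its 250 bases only the 84 that lie outside every *Ntf3* exon of GENCODE, whose *Ntf3* starts farther upstream than in the tables, are printed (chr6:126166911-126166994). The 250 bases before the second site (chr6:126164961-126165210) lie in an intron of RNAs that start upstream.
*Ntf3* first start site: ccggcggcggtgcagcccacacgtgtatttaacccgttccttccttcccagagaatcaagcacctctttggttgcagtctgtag
*Ntf3* second start site: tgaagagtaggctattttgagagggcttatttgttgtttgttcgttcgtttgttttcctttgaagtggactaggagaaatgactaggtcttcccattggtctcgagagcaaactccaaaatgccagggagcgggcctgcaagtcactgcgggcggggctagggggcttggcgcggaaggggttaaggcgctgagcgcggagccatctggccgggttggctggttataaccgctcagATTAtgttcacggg
The core was found once, 14 bases before the second site, and in none of the 250 bases before the first. Of the 32851 RefSeq promoter windows of that length, 54.9% hold TAAT on either strand. It was also found in 4 of 7 windows of *Bdnf*, in the single window of *Ntrk2*, and not in that of *Ngfr*. *Ntf5* and *Ntrk3* had no window and were not searched. A match of this kind is a description of the letters and not a binding site.

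TPM was rescaled between libraries so that the bulk of genes had the same level, and all values below are rescaled TPM, which is per length. Differences were fitted with limma on log2(TPM + 0.1) over genes with a mean of at least 0.5 TPM. The libraries held between 4.48 and 6.64 Gb of aligned sequence, as the ratio of a gene's coverage to its FPKM gives it, and brachial KO replicate 3 was the shallowest. Size factors lay between 0.893 and 1.25, the largest in brachial KO replicate 2. By the study's threshold, a log2 fold change beyond 0.5 with an unadjusted p under 0.05, 3.08% of the 16775 genes tested at the brachial level and 1.77% of the 16629 tested at the lumbar level differed between genotypes. These shares depend on single libraries. The brachial calls, 146 lower and 371 higher in KO, became 337 and 1043 without KO replicate 1, 136 and 142 without Het replicate 3, and 136 and 148 without KO replicate 3, and the lumbar calls, 132 and 163, became 149 and 302 without KO replicate 2. *Isl2* itself averaged 8.92 ± 0.716 TPM (SD, n = 3) in brachial Het and 5.93 ± 1.41 TPM in brachial KO, and 9.39 ± 0.941 and 7.37 ± 0.854 TPM in lumbar Het and KO. At both levels its 3 KO libraries lay below its 3 Het libraries, and its log2 difference over both levels was −0.48 (limma, adjusted p = 0.288).

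Of the 6 genes, 5 passed the expression filter. *Ngfr* was the most abundant in every group, with a mean of 76.7 TPM over the 12 libraries. It was followed by *Ntrk2* at 40.8 TPM, *Ntf3* at 19.5 TPM, *Ntrk3* at 16.0 TPM, and *Bdnf* at 1.96 TPM. *Ntf5* was listed at 0 in 10 of the 12 libraries and at 0.0293 and 0.0263 TPM in brachial KO replicate 2 and lumbar Het replicate 2, and it was not tested. In both Het groups no ranges of neighbours in this order overlapped. In brachial KO the order of *Ntf3* and *Ntrk3* was turned, at 14.7 ± 0.364 and 22.0 ± 6.69 TPM, and in lumbar KO it was kept, at 16.3 ± 3.32 and 13.6 ± 4.91 TPM. In both KO groups the ranges of these genes overlapped.

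**Figure D1:**
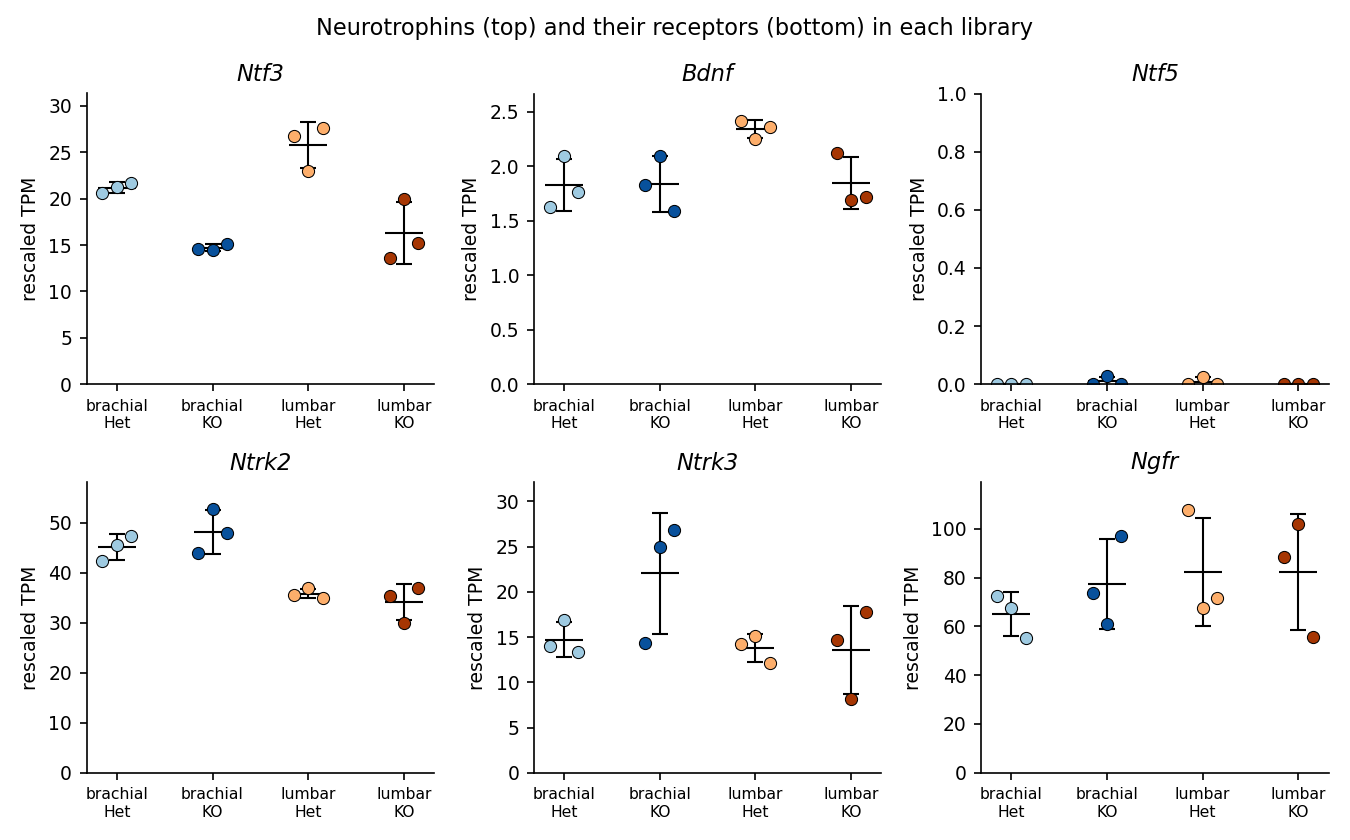
Rescaled TPM (vertical axis, from 0) of the 3 ligand genes and 3 receptor genes in each of the 12 libraries by group. Points are libraries, bars are the group mean ± SD (n = 3), and *Ntf5*, drawn on an axis up to 1 TPM, stays at or near 0. The *Ntf3* panel shows KO below Het at both levels, and the *Ntrk2* panel shows lumbar below brachial in both genotypes.

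Among the ligands, *Ntf3* was lower in KO at both levels. In brachial Het it was 20.6, 21.2, and 21.7 TPM in replicates 1 to 3, and in brachial KO 14.6, 14.5, and 15.1 TPM. In lumbar Het it was 26.7, 23.0, and 27.7 TPM, and in lumbar KO 13.6, 20.0, and 15.2 TPM. Every KO library lay below every Het library of its level, as in 10.4% of all genes tested in brachial and 5.52% in lumbar libraries. The brachial groups were tight, with a highest library 1.05 times the lowest in both, and the lumbar KO group was the widest at 1.47 times. The log2 difference was −0.52 (SE 0.0757, 95% confidence interval −0.70 to −0.35), or 0.696-fold, at the brachial level, and −0.67 (SE 0.148, interval −1.02 to −0.33), or 0.627-fold, at the lumbar level. Both passed the study's threshold in the lower direction, as did 0.87% of all genes tested in brachial and 0.794% in lumbar libraries. Neither passed after adjustment over all genes (limma, adjusted p = 0.357 brachial and 0.964 lumbar). The study itself lists *Ntf3* among the genes downregulated in KO lumbar cord, from these same libraries. An exact permutation test gave p = 0.1 at each level, the smallest that 3 against 3 libraries allow. By axial level, lumbar minus brachial, *Ntf3* differed by 0.20 (interval 0.014 to 0.39, limma, adjusted p = 0.128).

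With both levels in a single fit of 12 libraries, the log2 difference of *Ntf3* was −0.60 (SE 0.0863, interval −0.78 to −0.41), with an adjusted p of 0.0492 over 16706 genes (limma). It was among the 6 genes (0.0359% of those tested) that were lower in KO by this criterion, and 1 gene (0.00599%) was higher. These counts became 1 to 5 lower and 0 or 1 higher with any 1 library left out, with 1 and 0 when the library was brachial Het replicate 1, 2, or 3, brachial KO replicate 1 or 3, lumbar Het replicate 3, or lumbar KO replicate 1. The exact permutation test with genotypes permuted within each level gave p = 0.005, the smallest it can give. Both tests count 6 libraries per genotype as separate, while the methods name 3 animals per genotype, so brachial and lumbar libraries may share embryos. Which ones do is not known. Sex-linked genes mark 2 males and 1 female among the brachial and 1 male and 2 females among the lumbar Het libraries, which is more than 3 embryos can give, so at least some Het libraries were of different embryos. Any shared embryo would make these p-values too small. Separation of all KO below all Het libraries at both levels, as seen in *Ntf3*, was found in 1.3% of the genes tested. The adjusted p sits at the threshold. With any 1 of the 12 libraries left out it ranged from 0.0144 to 0.168 and was under 0.05 only without lumbar KO replicate 2, while the log2 difference stayed between −0.66 and −0.54. With all libraries kept, the call also ended under other settings, among them a pseudocount of 0.01 (adjusted p = 0.0529), no filter (0.0856), no trend in the limma fit (0.0823), coverage in place of TPM (0.0735), and deposited TPM (0.276). The lumbar difference exceeded the brachial by −0.15 (interval −0.53 to 0.23, limma, adjusted p = 0.842), so a difference between the levels was not detected. No gene passed this interaction (0 of 16706, limma), and 4.42% had an unadjusted p under 0.05. Those 738 genes became 2104 without brachial KO replicate 1 and 387 without brachial Het replicate 3.

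**Figure D2:**
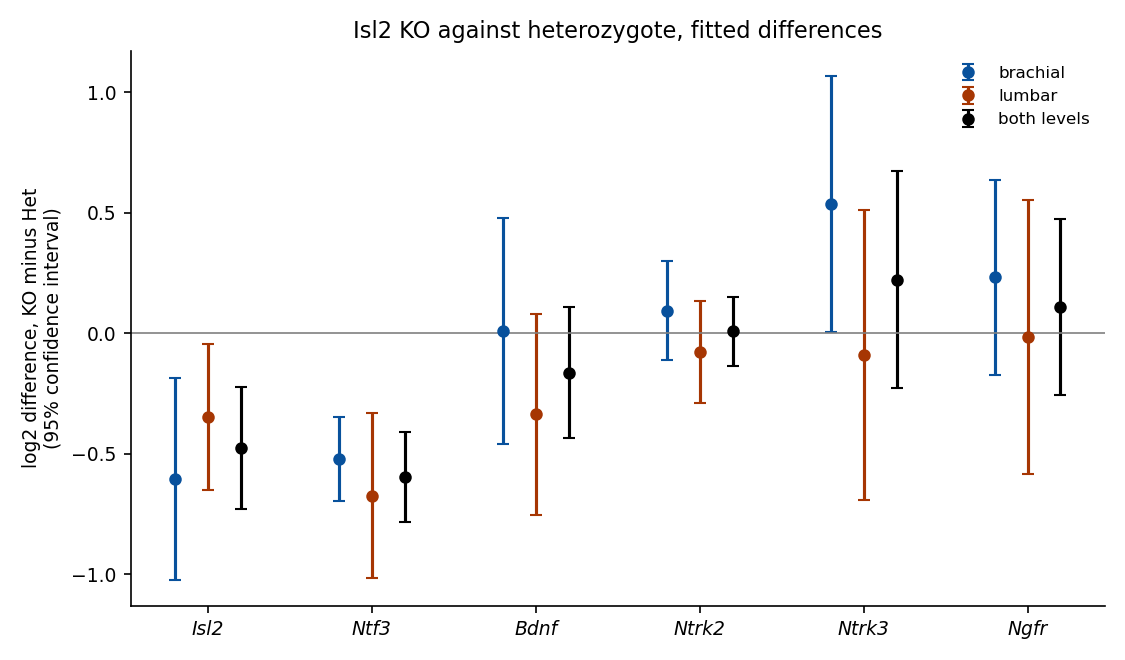
Fitted log2 differences (vertical axis), KO minus Het, for *Isl2* and the 5 tested members, at the brachial level, the lumbar level, and over both. Points are estimates and bars 95% confidence intervals (limma). The *Ntf3* intervals lie below 0 at both levels, and those of *Bdnf*, *Ntrk2*, and *Ngfr* cross 0.

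*Bdnf* was low throughout. Its levels were 1.63, 2.09, and 1.76 TPM in brachial Het, 1.83, 2.098, and 1.59 TPM in brachial KO, 2.42, 2.25, and 2.36 TPM in lumbar Het, and 2.12, 1.69, and 1.72 TPM in lumbar KO. The lumbar Het libraries were above all other libraries, and the remaining 3 groups overlapped. At the brachial level the log2 difference between KO and Het was 0.01 (interval −0.46 to 0.48). At the lumbar level it was −0.34 (SE 0.180, interval −0.75 to 0.08), short of the study's threshold (limma, adjusted p = 0.999). Its lumbar KO and Het libraries did not overlap (5.52% of all genes). *Ntf3* exceeded *Bdnf* in every library, by 6.43 to 12.7 times.

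Among the receptors, *Ntrk2* differed by axial level and not detectably by genotype. It was 42.4, 45.6, and 47.5 TPM in brachial Het, 43.9, 52.7, and 48.0 TPM in brachial KO, 35.6, 36.9, and 35.0 TPM in lumbar Het, and 35.3, 30.1, and 36.9 TPM in lumbar KO. Every lumbar library lay below every brachial library of either genotype, as in 4.66% of all genes. The log2 difference, lumbar minus brachial, was −0.42 (SE 0.0659, interval −0.56 to −0.27), or 0.75-fold, with an adjusted p of 0.00155 (limma). At this criterion 9.62% of all genes were lower and 8.91% higher in lumbar libraries, so such a difference is common between the levels. These 1607 and 1488 genes became 1113 and 940 without brachial Het replicate 2, and 1818 and 1735 without lumbar Het replicate 1. The exact permutation test within genotypes gave p = 0.005, the smallest possible. The log2 difference of *Ntrk2* between the levels was −0.33 in Het and −0.50 in KO, and the interaction was −0.17 (interval −0.45 to 0.11). Between KO and Het the log2 difference of *Ntrk2* was 0.09 (interval −0.11 to 0.30) at the brachial and −0.08 (interval −0.29 to 0.13) at the lumbar level.

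*Ntrk3*, the receptor for the ligand made from *Ntf3*, varied most between libraries, by 3.28 times from lowest to highest. It was 14.0, 16.9, and 13.3 TPM in brachial Het, and 14.4, 24.9, and 26.8 TPM in brachial KO. In lumbar Het it was 14.2, 15.1, and 12.1 TPM, and in lumbar KO 14.7, 8.18, and 17.8 TPM. Brachial KO replicates 2 and 3 were the 2 highest libraries of the series, and replicate 1 lay within the Het range. Lumbar KO replicate 2 was the lowest library, and the lumbar KO range enclosed the lumbar Het range. The brachial log2 difference was 0.54 (SE 0.229, interval 0.0031 to 1.07). It passed the study's threshold at the margin (limma, unadjusted p = 0.0490, adjusted p = 0.357), as did 2.21% of genes in the higher direction. The exact permutation test gave p = 0.2. The call was lost without brachial KO replicate 2 (0.42), without KO replicate 3 (0.37), without Het replicate 1 (0.50), and without Het replicate 3 (0.47), and without KO replicate 1 the value rose to 0.81. Brachial KO replicate 3 is the shallowest library and KO replicate 2 has the largest size factor, and the part of these in the result was not tested. At the lumbar level the difference was −0.09 (interval −0.69 to 0.51). The interaction of level and genotype was −0.63 (interval −1.48 to 0.23, limma, adjusted p = 0.812), and lumbar minus brachial was −0.40 (interval −0.85 to 0.05, adjusted p = 0.199). With 1 library left out they ran from −0.91 to −0.30 and from −0.49 to −0.22.

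**Figure D3:**
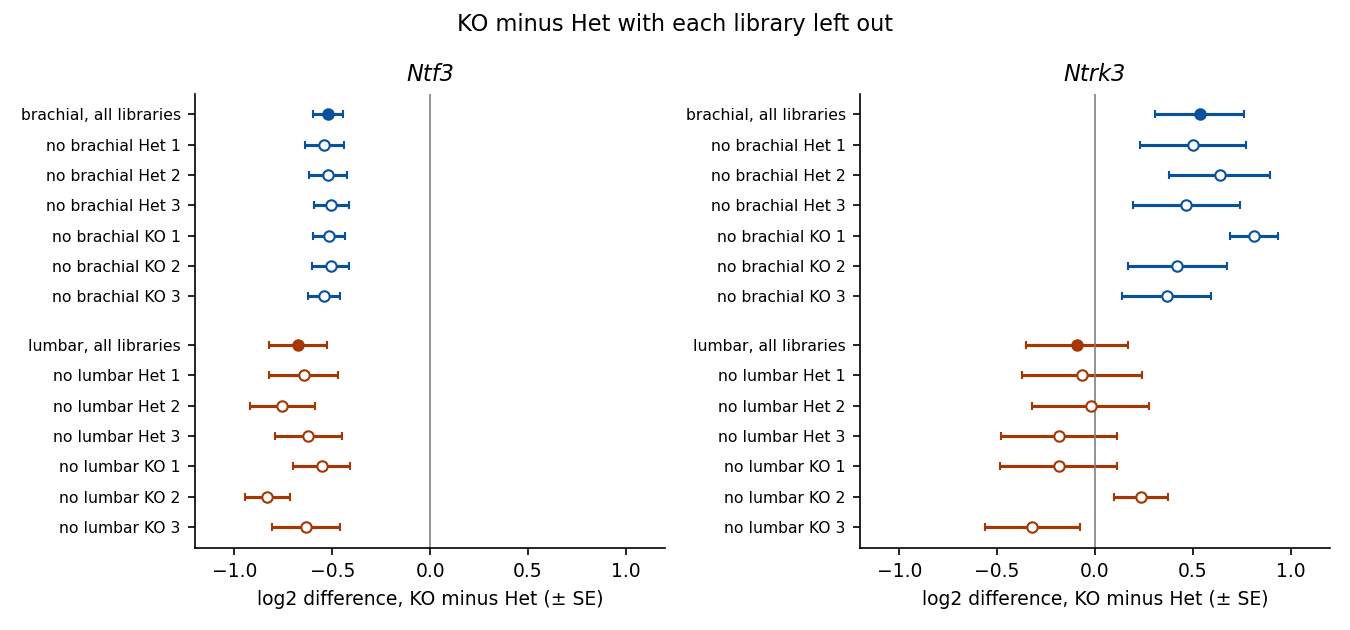
Log2 difference, KO minus Het (horizontal axis), of *Ntf3* and *Ntrk3* with all 6 libraries of a level (filled) and with each of them left out (open), bars ± SE (limma). *Ntf3* stays between −0.54 and −0.50 at the brachial level and between −0.83 and −0.55 at the lumbar level, while *Ntrk3* ranges from 0.37 to 0.81 at the brachial level and from −0.32 to 0.23 at the lumbar level.

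*Ngfr* was 72.4, 67.5, and 55.2 TPM in brachial Het, 73.8, 61.0, and 97.2 TPM in brachial KO, 108, 67.7, and 71.5 TPM in lumbar Het, and 88.6, 102, and 55.8 TPM in lumbar KO. All 4 groups overlapped. The log2 difference between KO and Het was 0.23 (interval −0.17 to 0.64) at the brachial and −0.02 (interval −0.58 to 0.55) at the lumbar level. With 1 library left out the brachial value ran from 0.053 to 0.39. Lumbar minus brachial was 0.19 (interval −0.17 to 0.56, limma, adjusted p = 0.472). The groups were wide, and the lumbar interval still holds a difference as large as the −0.52 of brachial *Ntf3*.

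MN markers were read beside these values, since *Ntf3*, *Ntrk2*, *Ntrk3*, and *Ngfr* can all be made by MNs. Of the 6 MN markers 0 were called in brachial KO (limma, 2 with an unadjusted p under 0.05, as had 2330 of all 16775 genes), and in lumbar KO *Prph*, which encodes the intermediate filament peripherin, was lower (−0.78). All 6 had values below 0 in lumbar KO, with a median of −0.33 against −0.0087 over all genes, and 3 had an unadjusted p under 0.05 (limma), as had 808 of all 16629 genes. In brachial KO 3 of 6 were below 0, with a median of −0.071 against −0.0125. The 2330 brachial genes at an unadjusted p under 0.05 became 4368 without KO replicate 1 and 788 without Het replicate 3 (limma). *Slc5a7*, the choline transporter gene, had a lumbar value of −0.35, *Isl1* −0.31, and *Chat*, which encodes choline acetyltransferase, −0.40, none of them called. Their summed level was 460.0 to 477 TPM in brachial Het, 387 to 443 TPM in brachial KO, 206 to 265 TPM in lumbar Het, and 153 to 204 TPM in lumbar KO. *Prph* made up the larger share of it in the brachial libraries, at 310.1 and 260.4 TPM in Het and KO, but 61.9 and 35.4 TPM in the lumbar libraries. *Mnx1*, which encodes Hb9, was between 37.5 and 67.2 TPM and differed between KO and Het by 0.08 in brachial and −0.02 in lumbar libraries. The ratio of *Ntf3* to *Mnx1* was 0.50 ± 0.034 in brachial Het and 0.33 ± 0.018 in brachial KO, and 0.497 ± 0.0863 and 0.318 ± 0.0816 in lumbar Het and KO (SD, n = 3). These ratios ran from 0.461 to 0.526 against 0.309 to 0.344 at the brachial level. At the lumbar level they ran from 0.398 to 0.55 in Het and from 0.244 to 0.405 in KO, which overlap. *Slc18a3*, the vesicular acetylcholine transporter gene, differed by 0.11 and −0.16. The part of MN number or of MN RNA content in the lower *Ntf3* was not tested.

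By Pearson's r over the 12 libraries on the log2 scale, among the 11038 genes with a mean of at least 5 TPM, the gene most like *Ntf3* was *Isl1*, the LIM-homeodomain paralog of *Isl2* (r = 0.94). *Tatdn3* and *Nit1* followed with r = 0.91 each. After subtraction of the group means, r with *Isl1* was 0.88, against 0.47 for *Tatdn3* and 0.53 for *Nit1*. *Isl1* was 53.9, 63.1, and 63.4 TPM in brachial Het, 51.5, 46.8, and 50.9 TPM in brachial KO, 65.3, 59.8, and 69.9 TPM in lumbar Het, and 45.3, 60.5, and 52.0 TPM in lumbar KO. Lumbar KO replicate 2, the highest of its group for *Ntf3*, was also the highest for *Isl1*. *Isl1* differed between KO and Het by −0.29 over both levels (SE 0.0726, limma, adjusted p = 0.294), a smaller and uncalled difference. The ratio of *Ntf3* to *Isl1* was 0.336 to 0.382 in brachial Het and 0.283 to 0.309 in brachial KO, and 0.384 to 0.409 in lumbar Het and 0.293 to 0.33 in lumbar KO, without overlap at either level. These points share libraries and groups, so the correlations are descriptions.

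**Figure D4:**
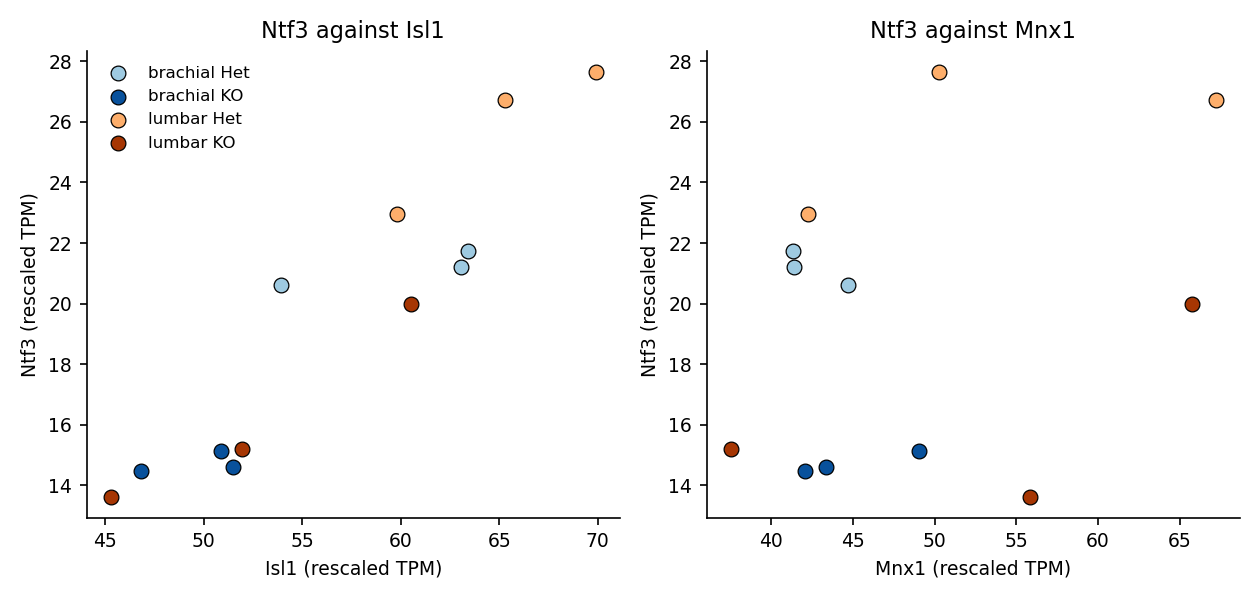
*Ntf3* (vertical axis, rescaled TPM) against *Isl1* (left) and *Mnx1* (right) in the 12 libraries (rescaled TPM; axes do not start at 0), colored by group. *Ntf3* follows *Isl1* across the 12 libraries (r = 0.94) and after subtraction of the group means (r = 0.88), and in the *Mnx1* panel each KO library lies below the Het libraries of its level, at *Mnx1* levels from 37.5 to 67.2 TPM over all libraries.

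The genes most like the receptors differed from receptor to receptor. For *Ntrk2* they were *2610002M06Rik*, *Dnajc6*, and *Abca5*, each with r = 0.98. For *Ntrk3* they were *Zfp354c* (r = 0.99), *Dgki* (0.99), and the long noncoding RNA gene *Gm47814* (0.98). *Zfp354c* was 42.9 and 46.0 TPM in brachial KO replicates 2 and 3, where *Ntrk3* was highest, and 25.6 TPM in lumbar KO replicate 2, where it was lowest. For *Ngfr* they were *Trp53i11* and *Zbtb46* (both 0.96) and *Igsf9* (0.94). The ratio of *Ngfr* to *Mnx1* lay between 1.34 and 1.98 in all 12 libraries, and that of *Ngfr* to *Slc18a3* between 2.58 and 4.64. With the mean log2 level of the MN markers, *Ngfr* gave r = 0.02. For *Bdnf* the closest were *Taf1b* (0.84), an unnamed gene with the identifier 100041985 (0.78), and *Mir6970* (0.77). Among the members, the pair most alike was *Ntrk2* and *Ntrk3* (r = 0.74), and *Ntf3* with *Ntrk3* gave −0.50.

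The rest of the pathway was followed through 93 genes in 5 lists, of which 83 were tested. At the brachial level 3 of them were higher in KO and 0 lower, or 3.61% of those tested, against 3.08% of all genes. They were *Sorl1* (0.54), a sorting receptor related to sortilin, *Braf* (0.53), a kinase of the MAP kinase cascade, and *Zfp369* (0.55), a zinc finger gene related to the p75 interactor NRIF. In lumbar KO 0 of 83 were called (limma), with 2 at an unadjusted p under 0.05, against 1.77% of all genes called and 808 of 16629 at such a p. Over both levels 0 had an adjusted p under 0.05 (limma), and 18 of 83 had an unadjusted p under it, against 14% of all genes. In the interaction these counts were 0 and 5. By axial level 10 of 83 were lower and 1 was higher at the lumbar level (13.3%), where 9.62% of all genes were lower and 8.91% higher.

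Of the other ligands, receptors, and coreceptors, 10 of 11 were tested by level, and *Sorcs1* was lower (−0.47) and *Sorcs3* higher (0.32) at the lumbar level. Both encode sortilin-family receptors. *Sort1*, which encodes sortilin, the p75 coreceptor for proneurotrophins, averaged 46.0 TPM, and its difference between KO and Het was 0.26 in brachial and 0.07 in lumbar libraries. *Lingo1*, a p75 coreceptor, averaged 19.0 TPM. Among 10 proneurotrophin processing genes, 7 were tested and *Mmp9*, a matrix metalloprotease, was lower at the lumbar level (−1.79). *Mmp3* and *Mmp7* were listed at 0 in every library. *Plat*, tissue plasminogen activator, averaged 45.1 TPM, *Pcsk7* 17.4 TPM, and *Furin* 2.39 TPM, and none of them was called.

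All 42 genes for Trk adaptors and signalling were tested. At the lumbar level *Shc4* (−0.51), *Frs3* (−0.39), *Pik3r1* (−0.28), *Mapk3* (−0.23), and *Pdpk1* (−0.18) were lower than at the brachial level. *Shc4* and *Frs3* encode adaptors that bind activated receptors, and the others a PI3-kinase subunit, a MAP kinase, and a kinase upstream of Akt. The most abundant was *Kidins220* (193 TPM), a scaffold that Trk receptors phosphorylate, with a difference between lumbar KO and Het of −0.12. Of the 16 p75 adaptor and cleavage genes, all tested, *Bex1* was lower at the lumbar level (−0.27). *Maged1*, which encodes the p75 interactor NRAGE, averaged 762 TPM and differed between KO and Het by −0.07 and −0.09. Of 14 genes that respond to neurotrophin signalling, 8 passed the filter over 12 libraries. *Dusp6* (−0.29) and *Spry2* (−0.34), feedback inhibitors of the MAP kinase pathway, were lower at the lumbar level. In lumbar KO against Het, 7 of the 8 tested had values below 0, with a median of −0.34 against −0.0087 over all genes, and 0 were called or had an unadjusted p under 0.05 (limma). In brachial KO 3 of the 9 tested had values below 0, with a median of 0.041 against −0.0125, and again 0 were called or had an unadjusted p under 0.05. *Fos* had values of −0.68 and −0.65 at the brachial and lumbar levels and *Junb* −0.52 and −0.30, with adjusted p over 0.05 in limma. In the fit over both levels 3 of the 8 tested had an unadjusted p under 0.05 (limma), against 14% of all genes, and 0 were called. They were *Fos* (−0.67), *Junb* (−0.41), and *Dusp6* (−0.16).

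**Figure D5:**
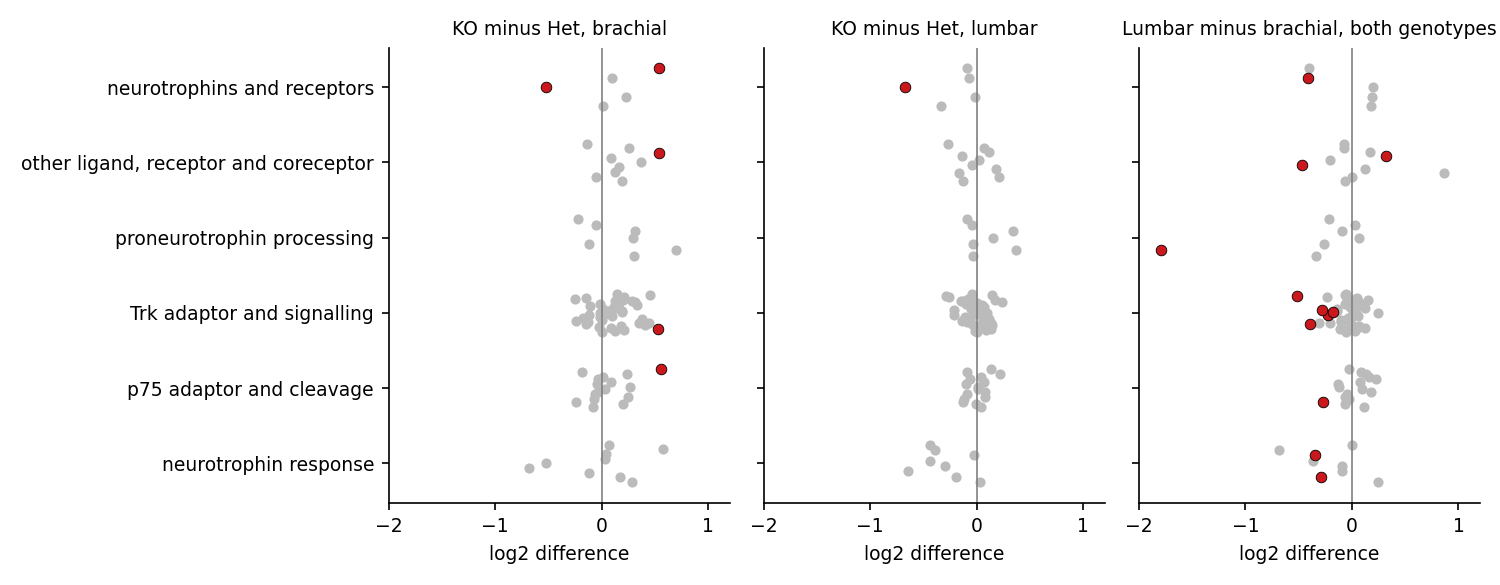
Log2 differences (horizontal axis) of every tested gene of the member list and of the 5 pathway lists, for KO minus Het at each level and for lumbar minus brachial. Red points passed the comparison's criterion and grey points did not. In the KO panels red points are *Ntf3* and *Ntrk3* among the members and 3 pathway genes at the brachial level, and *Ntf3* alone at the lumbar level.

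Markers of other cells were read beside the members, among them those of dorsal root ganglia, whose neurons express *Ntrk3* and *Ntrk2*. Of 9 sensory ganglion markers *Runx3* and *Scn10a* were listed at 0 in all 12 libraries, and the summed level was 12.9 to 19.9 TPM, mostly *Pou4f1*, with ranges that overlapped between the groups. Of the 4 tested in brachial KO, 2 had values below 0 (*Avil* at −0.18 and *Pou4f1* at −0.032), and *Prdm12* was higher (0.97), in the same comparison as *Ntrk3*, and its part in that result was not tested. Of the skeletal muscle markers *Myod1* was at 0 and the sum at most 0.727 TPM. The 5 Schwann cell and neural crest markers summed to 11.9 to 23.2 TPM, mostly *Foxd3*, and the 4 dorsal interneuron markers to 17.2 to 32.7 TPM. The Schwann cell and dorsal interneuron lists and those for mesenchyme, endothelium, microglia, and progenitors had 0 genotype calls among 25 genes tested in brachial and 24 in lumbar libraries (limma), with 1 and 2 at an unadjusted p under 0.05. Both of the lumbar genes were progenitor markers with values above 0 in KO, *Sox2* (0.22) and *Hes5* (0.25). Of the 6 progenitor markers 4 were above 0 in lumbar KO, with a median of 0.13, where the MN markers and *Ntf3* were below 0, and the part of progenitors in the lower *Ntf3* was not tested. In brachial KO 4 of the 6 were below 0, with a median of −0.050. Of 3 erythroid genes all had values above 0 in KO at both levels, with medians of 0.48 in brachial and 0.62 in lumbar libraries, and 1 was called, *Hba-x* in lumbar KO (0.69, against an uncalled 0.72 in brachial KO). Their sums ran from 1330.3 to 2484 TPM in brachial Het, 1876 to 4143 TPM in brachial KO, 1340.3 to 2261 TPM in lumbar Het, and 1785 to 3017 TPM in lumbar KO, and the part of blood in the genotype differences of the members was not tested.

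Single markers of several of these lists also differed by axial level, where 9.62% of all genes were lower and 8.91% higher in lumbar libraries. Microglia markers summed to 6.17 to 9.55 TPM in the brachial and 2.67 to 5.55 TPM in the lumbar libraries, and 2 of 3 (*Csf1r*, *Cx3cr1*) were lower. Endothelial markers summed to 56.8 to 78.7 TPM and 46.6 to 60.1 TPM, with 3 of 5 (*Kdr*, *Tek*, *Cldn5*) lower. Of 4 tested mesenchyme markers 3 were lower (*Col1a2*, *Pdgfra*, *Dcn*), and of the 3 tested Schwann cell and neural crest markers *Erbb3* was lower. Among the MN markers *Prph* (−2.62) and *Slc5a7* (−1.10) were lower. Of 6 progenitor and radial glia markers, *Olig2* (−0.73) and *Fabp7* (−0.40) fell and *Sox2* (0.38), *Nes* (0.42), and *Hes5* (0.52) rose. The part of these cells in the lower lumbar *Ntrk2* was not tested.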

How the data were processed

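RNA-seq was made from total RNA with ribosomal RNA depletion and a stranded kit. Per the labels and the study's methods, the authors used FastQC 0.11.7, Trimmomatic 0.38, HISAT2 2.1.0, Bowtie2 2.3.4.1, and StringTie 2.1.3b on mm10, and whether strand was used in counting is not given in the sources used here. The deposited TPM values came from the authors' StringTie run on each library, as did the deposited FPKM values and the deposited coverage (mean reads per base of a gene). No counts were used, so counting error is not given, and the study's DESeq2 test was not run. Symbols were matched for 45679 of 45777 identifiers in RefSeq (GRCm38.p6), and 96.2% had the same coordinates. A set of 5 small RNAs took 23.7% to 38.2% of TPM, so TPM was rescaled by median-of-ratios factors over the 12 libraries. limma 3.58.1 in R 4.3.3 (eBayes with trend) was fitted to log2(TPM + 0.1) for genes with a mean of at least 0.5 TPM, and p-values were adjusted by Benjamini-Hochberg over all genes tested. KO minus Het used 6 libraries per level and the study's threshold, and the 12-library fits had level and genotype as terms and an adjusted p of 0.05. Exact permutation tests were two-sided. Python 3.11.15, pandas 2.3.3, and matplotlib 3.10.9 were used, and the fits were checked on simulated data.

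The members and lists were chosen with earlier results of these data known. Named genes are the members, the 3 most alike each, called list genes, and up to 4 further list genes of highest level. The study's methods give 3 animals per genotype, and the same numbers recur at both levels. Sex-linked genes differed in 3 of 6 same-numbered brachial and lumbar pairs, so equal numbers do not mark the same embryo throughout, and no pairing was used. Whether other brachial and lumbar libraries share an embryo is not known.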

Additional observations from a re-analysis of the deposited data

How the results depend on the processing

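The fitted differences of the members and the numbers of genes called were recomputed with another pseudocount (0.01 or 1), filter (none, or 1 TPM), unit or scaling (deposited TPM, FPKM, quantile normalization), fit (no eBayes trend, a replicate block, 12 libraries together), and without each library. List counts, ratios, correlations, exact tests, and shares of genes without overlap were not recomputed. Coverage in place of TPM, protein-coding genes only, and embryo sex as a term were chosen after seeing the data. Of 545 values of single members under these, 501 kept direction and call, 29 lost a call, 1 gained one, and 14 turned sign, all of them uncalled. The lumbar *Ntf3* call held in all 19 alternatives. At the brachial level the 2 called members became 1 with a pseudocount of 1 and with deposited TPM (*Ntf3* not called, at −0.50 and −0.35). They became 1 with no filter, quantile normalization, no trend, 12 libraries together, coverage, or embryo sex (*Ntrk3* not called), and 1 or 2 without a library. Deposited TPM moved the median of all genes to 0.161 in that comparison, so there *Ntf3* was low against a raised median, and 47 genes were lower and 1211 higher in KO, against 146 and 371 after rescaling. By axial level it moved the median to −0.13, with 2214 genes lower and 646 higher in lumbar libraries, against 1607 and 1488. Over both levels the single called member, *Ntf3*, became 0 with a pseudocount of 0.01, no filter, deposited TPM, no trend, or coverage, and 0 or 1 without a library, and its log2 difference stayed between −0.61 and −0.51 over the settings that keep all libraries. With the replicate block it also became 0 (adjusted p = 0.369, limma), and the block changed no other member's call. Same-numbered Het and KO libraries correlated over 0.1 in 2 of 6 pairs. The labels tie no replicate number to a litter or embryo, so whether these numbers mark pairs is not known. By axial level 1 member was called, and 2 without lumbar KO replicate 1 (*Ntf3* at 0.26, adjusted p = 0.0355, limma, beside *Ntrk2*). Signs turned for brachial *Bdnf* with quantile normalization (−0.065) and without a library (−0.087 to 0.10), and for lumbar *Ngfr* with embryo sex as a term (0.14) and without a library (−0.20 to 0.24). Without a library, signs also turned for lumbar *Ntrk3* (−0.32 to 0.23), lumbar *Ntrk2* (−0.14 to 0.0093), *Ntrk2* over both levels (−0.031 to 0.055), and the interaction for *Ngfr* (−0.43 to 0.0070). The causes were not tested. Low values such as those of *Ntf5* cannot be told from 0 here, since read counts were not used.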
